A study of Mus musculus with 18 samples.

Results

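The measurement described here is the interaction of strain and apoptotic cells (ACs) in bone marrow-derived macrophages (BMDMs), macrophages grown in culture from bone marrow with M-CSF. For every gene it is the log2 change from control to AC in SjSS BMDMs minus the same change in B6 BMDMs. A positive value means a larger, or more positive, response in SjSS, and a negative value a smaller or more negative one. It rests on 12 of the 18 RNA-seq samples of the series, 3 in each of 4 groups, and was computed for 15789 of the 20615 genes in the count table, the rest having too few counts. Every tested gene belongs to it. The genes named below are those with the most extreme interactions and members of gene lists, and a few picked after their values were seen are marked as such.

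B6 stands for C57BL/6, the control strain, and SjSS for C57BL/6.NOD-Aec1Aec2, a Sjögren's syndrome model. The latter is a congenic line that carries the intervals Idd3 (Aec1) and Idd5 (Aec2) of the diabetic NOD mouse on the B6 background, so that the strains differ at many genes at once and no single gene is manipulated. BMDMs of both strains were grown for 7 days from marrow of mice 7 to 12 weeks old with 20% L929 cell supernatant as the source of M-CSF, and were treated in medium with 5% of it. The control samples were untreated. The AC samples received thymocytes killed with dexamethasone, 5 per BMDM, for 2 h, were washed, and were cultured for 3 h more according to the labels, while the study's methods give a longer time. The strain that gave the thymocytes is not stated for these samples. The remaining 6 samples, BMDMs of both strains given 1 µM CpG for 6 h, served for comparison. They also entered the filter on counts, the scaling and the shared estimate of spread behind the p values. The study describes 3 mice per strain, but the labels do not say which samples came from which mouse, so the p values measure the spread between these samples, which may be partly technical.

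Macrophages that take up dying cells recognise phosphatidylserine on them through receptors such as those of the TAM family (Tyro3, Axl and Mertk), and in the textbook course the uptake restrains inflammatory genes and engages genes of lipid handling. Nucleic acids and other cell contents can instead be sensed by Toll-like receptors (TLRs) and cytosolic sensors, which act through NF-kB and interferon regulatory factors. The interferons made in turn act through JAK kinases and STAT factors on interferon-stimulated genes, which include antiviral proteins, GTPases that attack intracellular vacuoles and the machinery of antigen presentation.

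Libraries held 30688336 to 57139662 counts (median 49003886), and samples of a group correlated at r = 0.989 to 0.992 over log2 CPM. Macrophage markers were abundant in all 4 groups, with 15 genes summing to 21150 to 26770 CPM. Of 30 thymocyte and T cell markers, 29 were in the count table and 11 passed the count filter. The 29 summed to 73.6 to 89.7 CPM before and 29.0 to 36.2 CPM after ACs in B6. In SjSS BMDMs they summed to 68.3 to 84.8 CPM before and 47.3 to 52.0 CPM after ACs. These sums were lower after ACs in both strains. The markers that did not pass the filter were scarce and went the other way, from 86 to 248 counts in B6 and from 87 to 156 in SjSS. Among them Rag1, which rearranges antigen receptor genes, went from 0 to 24 counts in B6 and from 0 to 3 in SjSS. Red cell and platelet markers summed to 1028 to 1247 CPM in AC treated SjSS BMDMs and 642 to 947 CPM in the other 3 groups. Of 4 measured neutrophil markers, 2 were called larger, S100a9 and Camp, both under 1 CPM in all 12 samples. The call of S100a9 was lost without SjSS AC replicate 2, and that of Camp without B6 control replicate 1. The 7 neutrophil markers in the count table summed to 113 to 129 CPM before and 83.0 to 99.3 CPM after ACs in B6. In SjSS they summed to 88.6 to 102 CPM before and 112 to 117 CPM after ACs. The part of these markers in the results was not tested. In bulk RNA, fewer cells of a type and less RNA per cell cannot be told apart. Libraries were scaled by TMM, a scaling that sets aside the genes that differ most. The TMM factors were 0.833 to 0.838 in AC treated SjSS BMDMs and 1.021 to 1.134 in the other 3 groups. Scaling by library totals alone moves the median interaction over all genes from -0.006 to -0.347, and the values below are relative to the TMM centre.

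Of the 15789 genes, 752 (4.76%) had a larger response in SjSS and 437 (2.77%) a smaller one, where the adjusted p was under 0.05 and the log2 difference passed 1.3 in size, the rule used for all calls here. With library totals alone, the split turned, to 509 larger and 913 smaller genes. At an adjusted p under 0.05 with no limit of size, 3098 genes (19.6%) were larger and 2889 (18.3%) smaller. It was also counted how often every difference between an AC and a control sample of SjSS lay beyond every such difference of B6. This held in the larger direction for 2886 genes (18.3%), among them 707 of the 752, and in the smaller direction for 2707 (17.1%), among them 373 of the 437. The same samples chose the called genes, so their counts here describe the calls and are not separate support. In the single strains, ACs raised 383 genes (2.43%) and lowered 322 (2.04%) in B6, and raised 1119 (7.09%) and lowered 921 (5.83%) in SjSS.

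The 752 genes with a larger response had a median log2 response of 0.28 in B6 and 2.31 in SjSS. ACs raised 452 of them in SjSS only and 137 in both strains, and lowered 67 in B6 only, while the single-strain responses of 90 met the rule in neither strain. Control levels of 699 of the 752 were not called different between the strains, while 42 were lower and 11 higher in control SjSS BMDMs. Over all genes, 205 (1.3%) were higher and 113 (0.716%) lower there. With ACs, 574 of the 752 were higher in SjSS, against 985 genes (6.24%) higher and 425 (2.69%) lower over all genes. The 437 genes with a smaller response had a median response of -0.03 in B6 and -1.94 in SjSS. They were mostly genes that fell further in SjSS: 316 were lowered in SjSS only, 18 in both strains, and 21 had been raised in B6. Control levels were higher in SjSS for 28 of the 437 and lower for 0, and 409 were not called different. The control and AC samples compared here also enter the interaction that chose both sets. The direction of these strain differences therefore follows in part from the choice.

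**Figure D1:**
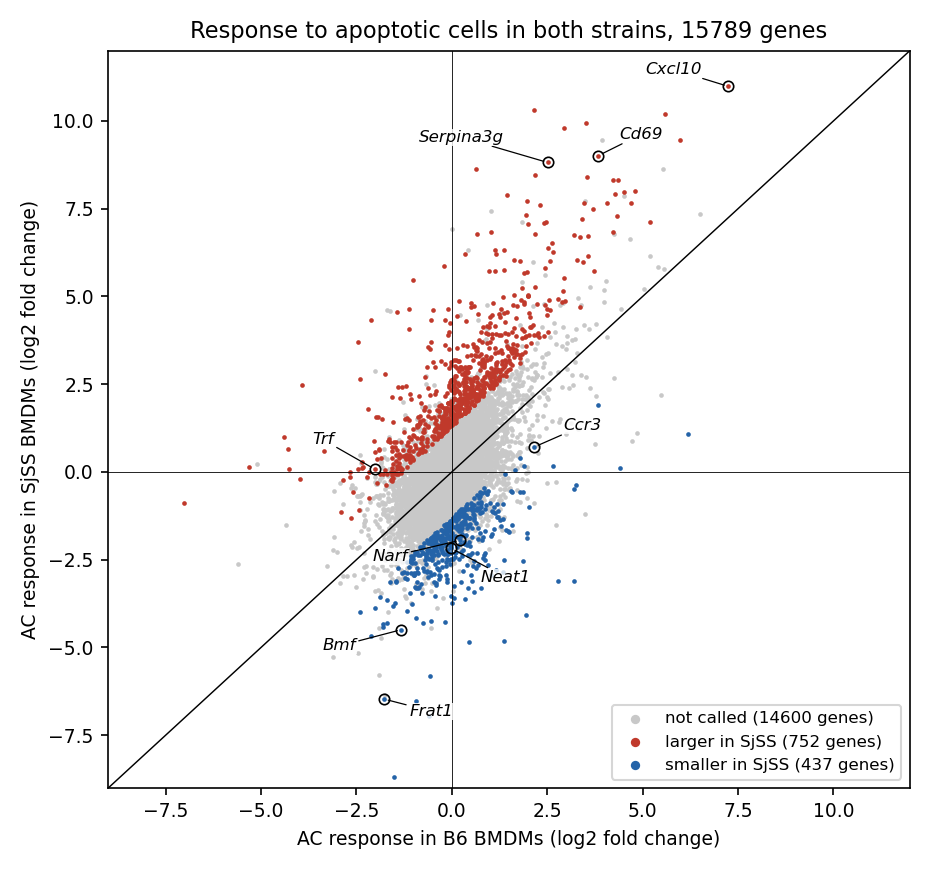
Each point is 1 of 15789 genes, placed by its log2 fold change after ACs in B6 (horizontal) and in SjSS BMDMs (vertical), with the line of equal response drawn. The 752 genes called larger in SjSS (red) lie above the line, most at small B6 values and high SjSS values, and the 437 called smaller (blue) lie below it, most at negative SjSS values.

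Of the 10 most positive interactions named by the rule, 6 are described first. Cd69, a lectin of activated leukocytes (mm10 chr6:129267325-129275437), measured 2.02, 1.86 and 2.04 CPM in control B6, 25.2, 28.3 and 31.8 CPM in AC treated B6, 2.08, 1.72 and 1.76 CPM in control SjSS and 958, 987 and 954 CPM in AC treated SjSS BMDMs. All 3 AC treated SjSS samples lay far above every other sample, and the AC treated B6 samples lay above both sets of controls. The log2 response was 3.84 in B6 and 9.01 in SjSS, an interaction of 5.17 (SE 0.16, adjusted p = 1.52e-13) in the quasi-likelihood test of edgeR, with p adjusted over all genes by Benjamini-Hochberg. Serpina3g (chr12:104236245-104241940), an intracellular serpin, measured 0.352, 0.229 and 0.302 CPM in control B6, 1.67, 1.49 and 2.03 CPM in AC treated B6, 0.258, 0.503 and 0.254 CPM in control SjSS and 139, 131 and 161 CPM in AC treated SjSS BMDMs. The controls of the strains overlapped and the AC groups did not, and the interaction was 6.30 (SE 0.42, adjusted p = 1.29e-09). Socs1 (chr16:10783808-10785537), which inhibits JAK kinases, measured 2.79, 3.004 and 3.499 CPM in control B6, 13.8, 10.03 and 12.2 CPM in AC treated B6, 2.27, 2.37 and 1.41 CPM in control SjSS and 295, 333 and 312 CPM in AC treated SjSS BMDMs. The control SjSS samples were the lowest of all and the AC treated SjSS samples the highest, an interaction of 5.35 (SE 0.25, adjusted p = 1.27e-11). Il27 (chr7:126589010-126594942), a subunit of the cytokine IL-27, rose from 0.737, 0.444 and 0.508 CPM to 44.6, 48.03 and 46.3 CPM in SjSS BMDMs, while B6 BMDMs went from 0.801, 1.11 and 0.853 CPM to 1.81, 1.93 and 2.27 CPM, an interaction of 5.19 (SE 0.23, adjusted p = 9.79e-12). Ch25h (chr19:34473786-34475136), which makes 25-hydroxycholesterol, measured 0.544, 0.605 and 0.817 CPM in control B6, 1.01, 0.624 and 1.49 CPM in AC treated B6, 0.184, 0.355 and 0.0725 CPM in control SjSS and 15.9, 23.8 and 21.4 CPM in AC treated SjSS BMDMs. AC treated and control B6 samples overlapped, and all SjSS samples with ACs stood above them, an interaction of 6.12 (SE 0.60, adjusted p = 1.88e-07). The transcription factor gene Lhx2 was close to 0 in control samples (12 counts over the B6 controls and 28 over the B6 samples with ACs, against 16 and 1196 in SjSS), and its interaction of 4.96 was no longer called without B6 control replicate 1 (adjusted p = 0.191).

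**Figure D2:**
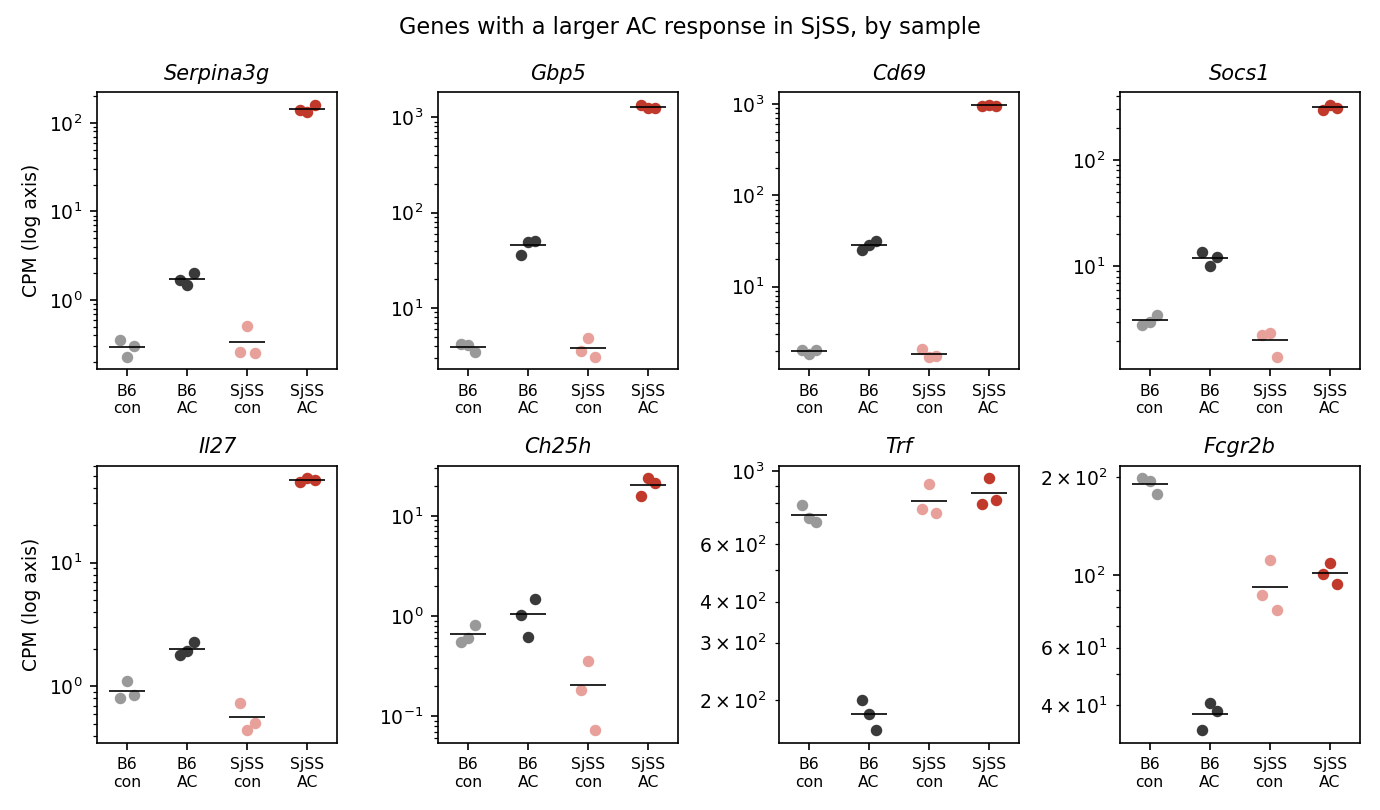
CPM of 8 genes with a larger AC response in SjSS, on log axes that differ between panels, in control (con) and AC treated (AC) samples of each strain, with 1 point per sample and a bar at the mean of 3. In the first 6 genes the AC treated SjSS samples stand above all others, and in Trf and Fcgr2b the AC treated B6 samples stand below all others.

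Guanylate-binding proteins, GTPases that interferons induce and that act on vacuoles of intracellular microbes, had the largest median interaction of the gene groups described. Of 11 measured, 10 were larger and 0 smaller, with a median interaction of 4.31, a median response of 0.49 in B6 and 4.65 in SjSS. Gbp5 (chr3:142493978-142522345), which also takes part in inflammasome activation, measured 4.21, 4.09 and 3.43 CPM in control B6, 36.3, 49.7 and 50.6 CPM in AC treated B6, 3.56, 4.85 and 3.10 CPM in control SjSS and 1355, 1251 and 1236 CPM in AC treated SjSS BMDMs. All 3 AC treated SjSS samples stood far above the AC treated B6 samples, which stood above both sets of controls, an interaction of 4.88 (SE 0.30, adjusted p = 4.58e-10). Gbp7 rose in SjSS alone, from 18.2, 18.6 and 15.99 to 356, 302 and 345 CPM, against 31.5, 27.6 and 24.8 and 24.4, 26.2 and 30.1 CPM in B6, an interaction of 4.31. Gbp8 reached the call by another route, since ACs lowered it in B6 (log2 response -1.58) and the SjSS response of 0.40 was not called. The remaining gene, Gbp10, held 0 counts over the B6 controls and 8 over the B6 samples with ACs, against 8 and 204 in SjSS, and its interaction was not called. Immunity-related GTPases, of related function, had 14 of 15 members larger and a median interaction of 3.00. Iigp1 measured 5.72, 7.03 and 4.58 CPM in control B6, 27.3, 30.9 and 34.7 CPM in AC treated B6, 12.01, 10.1 and 8.05 CPM in control SjSS and 1546, 1255 and 1350.0 CPM in AC treated SjSS BMDMs, with no overlap between the AC groups, and Tgtp1 (chr11:48985327-48994173) rose from under 1 CPM in all other samples to 53.7, 42.4 and 44.1 CPM in AC treated SjSS BMDMs, an interaction of 5.76 (SE 0.72, adjusted p = 4.07e-06). Tgtp1 and Tgtp2, several Gbp genes, and the overlapping genes Igtp and Irgm2 are near-identical or share sequence, so the authors' counting could have split reads between them, and their single values are uncertain.

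Among 38 antiviral interferon-stimulated genes, 28 were larger and 0 smaller, with a median interaction of 1.99. This group responded in both strains: 20 were raised in B6 and 36 in SjSS, with median responses of 1.41 and 3.31. Rsad2, whose product viperin blocks viral replication, measured 26.8, 29.5 and 22.7 CPM in control B6, 631, 532 and 636 CPM in AC treated B6, 49.99, 75.3 and 35.9 CPM in control SjSS and 13433, 13142 and 13814 CPM in AC treated SjSS BMDMs. The 3 control SjSS samples were above the 3 control B6 samples, and the AC treated SjSS samples were above everything else, an interaction of 3.47 (SE 0.34, adjusted p = 1.86e-07). Ifit1, which binds viral RNA, had an interaction of 2.96, Mx1, an antiviral GTPase, of 3.15, and Oasl1, of the oligoadenylate synthetase family, of 1.92. The group's median difference between the strains in control BMDMs was 0.72, higher in SjSS, and 3 members, among them Usp18 (1.54) and Oasl1 (1.78), were called higher there before any treatment. Of the PYHIN family, sensors and regulators of nucleic acid responses, 14 were listed, 7 measured, and 7 larger, with a median interaction of 2.32. In this family control levels were lower in SjSS, by a median of -1.28. Ifi204 measured 122, 136 and 121 CPM in control B6, 163, 191 and 203 CPM in AC treated B6, 47.8, 56.96 and 40.2 CPM in control SjSS and 612, 577 and 636 CPM in AC treated SjSS BMDMs, so that the order of the strains in control samples was the reverse of that in AC treated samples. Of 15 PARP genes and partners, 8 were larger and 0 smaller, with Parp14 at 2.14 (SE 0.18, adjusted p = 2.33e-08).

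Fewer of the upstream members of the pathway were called. Of 16 genes for interferon beta, interferon receptors, JAKs and STATs, 3 were larger, among them Stat2 (1.77) and Jak2 (1.67). Ifnb1, the gene for interferon beta, had 5 counts over the B6 controls and 26 over the B6 samples with ACs, against 15 and 694 in SjSS. Its interaction was not called (adjusted p = 0.064). The receptor gene Ifnar1 had an interaction of 0.31 and Ifngr1 of 0.05, neither called. Of 11 interferon regulatory factors, 2 were larger. Irf1 measured 75.9, 74.2 and 68.8 CPM in control B6, 126, 131 and 126 CPM in AC treated B6, 72.7, 73.4 and 90.4 CPM in control SjSS and 1373, 1453 and 1285 CPM in AC treated SjSS BMDMs, with an interaction of 3.31 (SE 0.14, adjusted p = 8.25e-12), while Irf7, a strongly induced factor in both strains, had responses of 2.57 in B6 and 2.81 in SjSS that differed by 0.24 (adjusted p = 0.505). Inhibitors of the pathway were called as well. Of 8 SOCS family genes, 4 were larger, with Socs3 at 3.42 (SE 0.21, adjusted p = 3.16e-10) and Cish at 2.19.

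The 250 bases before the RefSeq start (GRCm38.p6) are shown for 4 of the most changed genes that rose and for Sesn1, described below, which fell. They are shown for the letters that interferon-activated factors are known to bind, the interferon-stimulated response element core GAAANNGAA and the GAS element TTCNNNGAA, and for the cyclic AMP response element TGACGTCA in Ch25h, searched on both strands, with matches in capitals.
Gbp5 (chr3:142496684-142496933, plus strand): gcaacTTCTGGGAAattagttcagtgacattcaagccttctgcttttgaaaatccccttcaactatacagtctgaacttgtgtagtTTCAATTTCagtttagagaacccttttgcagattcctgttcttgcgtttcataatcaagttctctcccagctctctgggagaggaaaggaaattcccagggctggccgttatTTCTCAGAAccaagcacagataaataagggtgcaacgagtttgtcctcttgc
Serpina3g (chr12:104235897-104236146, plus strand): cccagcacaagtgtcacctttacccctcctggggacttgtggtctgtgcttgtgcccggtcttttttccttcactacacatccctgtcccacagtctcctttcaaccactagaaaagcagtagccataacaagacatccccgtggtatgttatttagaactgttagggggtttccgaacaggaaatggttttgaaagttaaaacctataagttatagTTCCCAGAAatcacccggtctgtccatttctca
Socs1 (chr16:10785537-10785786, minus strand): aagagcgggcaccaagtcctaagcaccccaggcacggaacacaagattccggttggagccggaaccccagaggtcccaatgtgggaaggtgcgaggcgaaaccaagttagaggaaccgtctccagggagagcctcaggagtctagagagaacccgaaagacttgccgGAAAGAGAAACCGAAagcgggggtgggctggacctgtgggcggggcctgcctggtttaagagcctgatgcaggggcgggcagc
Ch25h (chr19:34475149-34475398, minus strand): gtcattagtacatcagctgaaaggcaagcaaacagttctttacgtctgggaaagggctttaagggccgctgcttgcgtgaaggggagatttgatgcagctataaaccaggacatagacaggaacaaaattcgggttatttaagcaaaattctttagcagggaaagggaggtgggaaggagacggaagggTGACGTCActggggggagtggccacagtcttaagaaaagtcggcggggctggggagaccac
Sesn1 (chr10:41810324-41810573, plus strand): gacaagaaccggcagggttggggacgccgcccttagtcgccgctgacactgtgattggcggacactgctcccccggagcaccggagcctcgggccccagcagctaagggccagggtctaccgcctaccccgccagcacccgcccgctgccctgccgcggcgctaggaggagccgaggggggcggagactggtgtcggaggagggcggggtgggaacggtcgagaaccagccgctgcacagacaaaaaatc
Gbp5 held a response element core beginning 164 bases before the start and GAS letters beginning 245 and 52 bases before it. Serpina3g held GAS letters at 33 bases, Socs1 overlapping response element cores at 83 and 77 bases, and Ch25h the cyclic AMP element at 61 bases. Sesn1 held neither interferon-related motif in this window, and nor did Ch25h. Among the genes named by the rule, 7 larger ones had a promoter to search. Of these 7, 3 held the response element core, 3 GAS letters and 1 the cyclic AMP element. Ccl12 and Lhx2, not shown, held none of these, and Tgtp1, not shown, held both interferon-related motifs. Of 9 smaller genes searched in the same way, 0 held any of these motifs. The difference between the sets was not tested. Over all 32851 RefSeq promoters of this length, 7.13% held the response element core, 7.02% GAS letters and 1.55% the cyclic AMP element, so a match alone is common. Shares over the called genes are not given, because only 512 of the 752 larger genes and 228 of the 437 smaller genes had a promoter in the table. A match describes letters and is not evidence that a factor was bound.

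Many chemokine and some cytokine genes had a larger response in SjSS. Of 25 chemokine ligands, 13 were larger and 0 smaller, with a median interaction of 1.95 and median responses of 1.55 in B6 and 3.92 in SjSS. Cxcl10, which attracts activated T cells, measured 1.201, 1.04 and 1.51 CPM in control B6, 181, 188 and 204 CPM in AC treated B6, 2.597, 4.17 and 0.888 CPM in control SjSS and 4626, 5143 and 4774 CPM in AC treated SjSS BMDMs. ACs raised it in both strains, and all AC treated SjSS samples lay above all AC treated B6 samples, an interaction of 3.74 (SE 0.43, adjusted p = 1.2e-06). Ccl12, a monocyte attractant, had the largest called interaction of the group, 5.29 (SE 0.39, adjusted p = 3.89e-09), with 4.19, 3.07 and 4.68 CPM in AC treated B6 and 104, 119 and 108 CPM in AC treated SjSS BMDMs. Ccl5 (3.79), Ccl4 (3.37), Ccl3 (3.10) and Ccl2 (2.63) followed. Cxcl9 and Cxcl11 had at most 20 counts in each control group, and their interactions were not called (adjusted p = 0.556 and 1), although their AC groups were apart (0.218, 0.151 and 0.223 and 32.8, 39.3 and 26.2 CPM for Cxcl9 in B6 and SjSS).

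Of 21 interleukins and colony-stimulating factors, 8 were larger and 2 smaller. Il6 reached 3.71, 6.36 and 5.75 CPM in AC treated B6 and 55.5, 75.7 and 76.8 CPM in AC treated SjSS BMDMs, from at most 0.176 CPM in any control, an interaction of 4.63 (SE 1.03, adjusted p = 0.00148). Il1b measured 4.29, 4.36 and 7.14 CPM in control B6, 39.99, 60.5 and 54.000 CPM in AC treated B6, 1.33, 2.31 and 2.28 CPM in control SjSS and 122, 131 and 132 CPM in AC treated SjSS BMDMs. The control SjSS samples were below all control B6 samples, and the interaction of 2.76 (SE 0.33, adjusted p = 1.83e-06) therefore exceeded the difference between the AC groups. Il15, which sustains natural killer and memory T cells, rose in SjSS alone, with an interaction of 4.01 (SE 0.22, adjusted p = 1.26e-10). The anti-inflammatory cytokine gene Il10 was larger too, at 6.73, 7.61 and 7.06 CPM in AC treated B6 and 12.7, 14.5 and 17.4 CPM in AC treated SjSS BMDMs (1.90 (SE 0.27, adjusted p = 2.2e-05)). Il16, a T cell attractant, and Il11 were the smaller members. Il16 fell from 48.98, 49.5 and 60.1 to 7.03, 5.87 and 6.304 CPM in SjSS and had a B6 response of -1.17 that was not called (-1.88 (SE 0.14, adjusted p = 3.7e-09)), and the call of Il11, a gene under 2 CPM in every sample, was lost when any of 6 samples was left out. Of 21 genes of the TNF superfamily and its receptors, 5 were larger and 0 smaller. Tnf measured 46.5, 45.9 and 45.5 CPM in control B6, 144, 179 and 167 CPM in AC treated B6, 21.8, 25.7 and 14.3 CPM in control SjSS and 722, 835 and 757 CPM in AC treated SjSS BMDMs, with an interaction of 3.41 (SE 0.19, adjusted p = 1.62e-10), and Tnfsf10, the death ligand TRAIL, had 4.66 (SE 0.32, adjusted p = 1.45e-09).

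Genes of pathogen and nucleic acid sensing were larger in part. Of 18 genes of cytosolic RNA and DNA sensing, 11 were larger and 0 smaller, led by Ifih1, the RNA sensor MDA5, with 96.7, 117 and 117 CPM in AC treated B6 and 1287, 1196 and 1277 CPM in AC treated SjSS BMDMs (3.34 (SE 0.18, adjusted p = 8.91e-11)). The RNA sensor RIG-I (Ddx58, 2.29) and the DNA sensor cGAS (Mb21d1, 2.02) were also larger. Of 27 Toll-like receptors and adaptors, 6 were larger and 0 smaller. Tlr9, which senses unmethylated DNA, measured 37.1, 37.1 and 38.8 CPM in control B6, 33.1, 39.3 and 32.9 CPM in AC treated B6, 38.2, 35.3 and 35.8 CPM in control SjSS and 107, 85.7 and 106 CPM in AC treated SjSS BMDMs. It rose in SjSS, and in B6 the AC treated and control samples overlapped, an interaction of 1.55 (SE 0.17, adjusted p = 6.29e-07). Tlr7, for single-stranded RNA, had an interaction of 1.24, under the limit of size (adjusted p = 2.24e-06), and Tlr3, for double-stranded RNA, one of 2.62. Of 36 NF-kB subunits, inhibitors and TRAFs, 11 were larger and 0 smaller, with a median of 0.85. The feedback inhibitors Tnfaip3 (1.85) and Nfkbia (1.51) were among them. Of 21 inflammasome, pyroptosis and necroptosis genes, 4 were larger, with Nlrp3 at 1.81 (SE 0.12, adjusted p = 1.23e-09) and Casp4 at 2.19, and 0 smaller.

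Some genes of antigen presentation were larger in SjSS. Of 26 genes of MHC class I and antigen processing, 9 were larger and 0 smaller, and 24 were positive at an adjusted p under 0.05. Tap1, a peptide transporter, went from 44.4, 50.3 and 49.8 to 58.3, 69.4 and 66.03 CPM in B6 and from 55.2, 62.5 and 72.6 to 436, 461 and 466 CPM in SjSS (2.41 (SE 0.20, adjusted p = 2.5e-08)), and Nlrc5, the class I transactivator, had 2.01. Of 15 class II genes, 5 were larger and 0 smaller, and at an adjusted p under 0.05 alone 8 were positive and 2 negative. Cd74, the invariant chain, measured 33.3, 39.97 and 43.04 CPM in control B6, 9.21, 17.2 and 14.98 CPM in AC treated B6, 49.8, 60.9 and 44.1 CPM in control SjSS and 82.5, 93.9 and 77.9 CPM in AC treated SjSS BMDMs. ACs lowered it in B6 (log2 -1.49), and the SjSS response of 0.72 was not called, an interaction of 2.21 (SE 0.23, adjusted p = 3.95e-07). H2-Aa and H2-Eb1 had the same pattern, with interactions of 2.37 and 2.56. Of 18 costimulatory and checkpoint ligands, 8 were larger and 0 smaller. Cd40 reached 15.2, 21.3 and 20.3 CPM in AC treated B6 and 264, 289 and 265 CPM in AC treated SjSS BMDMs (4.41 (SE 0.20, adjusted p = 8.97e-12)), and the inhibitory ligand PD-L1 (Cd274) reached 256, 264 and 267 and 2111, 2067 and 2230.3 CPM (2.58 (SE 0.11, adjusted p = 8.25e-12)). Cd86 was raised in SjSS (2.00) and had a B6 response of 0.01, whereas Cd80 was raised in neither strain and had an interaction of 0.43 (adjusted p = 0.121). Of 9 dendritic cell markers, 8 were in the count table and 6 passed the filter. The 8 summed to 28.6 to 42.3 CPM before and 19.1 to 20.5 CPM after ACs in B6. In SjSS BMDMs they summed to 37.8 to 44.8 CPM before and 53.01 to 57.3 CPM after ACs. They moved with the class II genes, and their part in the result was not tested.

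Effector genes followed. Acod1, which makes itaconate, measured 40.2, 44.1 and 42.1 CPM in control B6, 1022, 1284 and 1217 CPM in AC treated B6, 20.02, 27.003 and 15.8 CPM in control SjSS and 5249.5, 5311 and 5376 CPM in AC treated SjSS BMDMs. It was raised in both strains, and by more in SjSS, with an interaction of 3.20 (SE 0.19, adjusted p = 2.34e-10). Nos2, inducible nitric oxide synthase, was at most 0.0887 CPM in controls, 0.516, 0.3595 and 0.669 CPM in AC treated B6 and 56.3, 46.8 and 50.7 CPM in AC treated SjSS BMDMs. It was called larger (adjusted p = 0.011), but not without B6 control replicate 1 or 3 (adjusted p = 0.0608 and 0.112). C3, the central complement component, rose from 54.98, 57.4 and 53.4 to 778, 802 and 768 CPM in SjSS and was 91.8, 83.3 and 95.4 CPM in control and 182, 188 and 194 CPM in AC treated B6 BMDMs, a B6 response that was not called (2.76 (SE 0.09, adjusted p = 1.52e-13)). Among adhesion genes, 5 of 28 were larger and 0 smaller, with Vcam1 (2.55) and Icam1 (2.04). Clec4e, the receptor Mincle, which binds a nuclear protein released by dead cells, had 2.97 (SE 0.16, adjusted p = 7.24e-11).

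**Figure D3:**
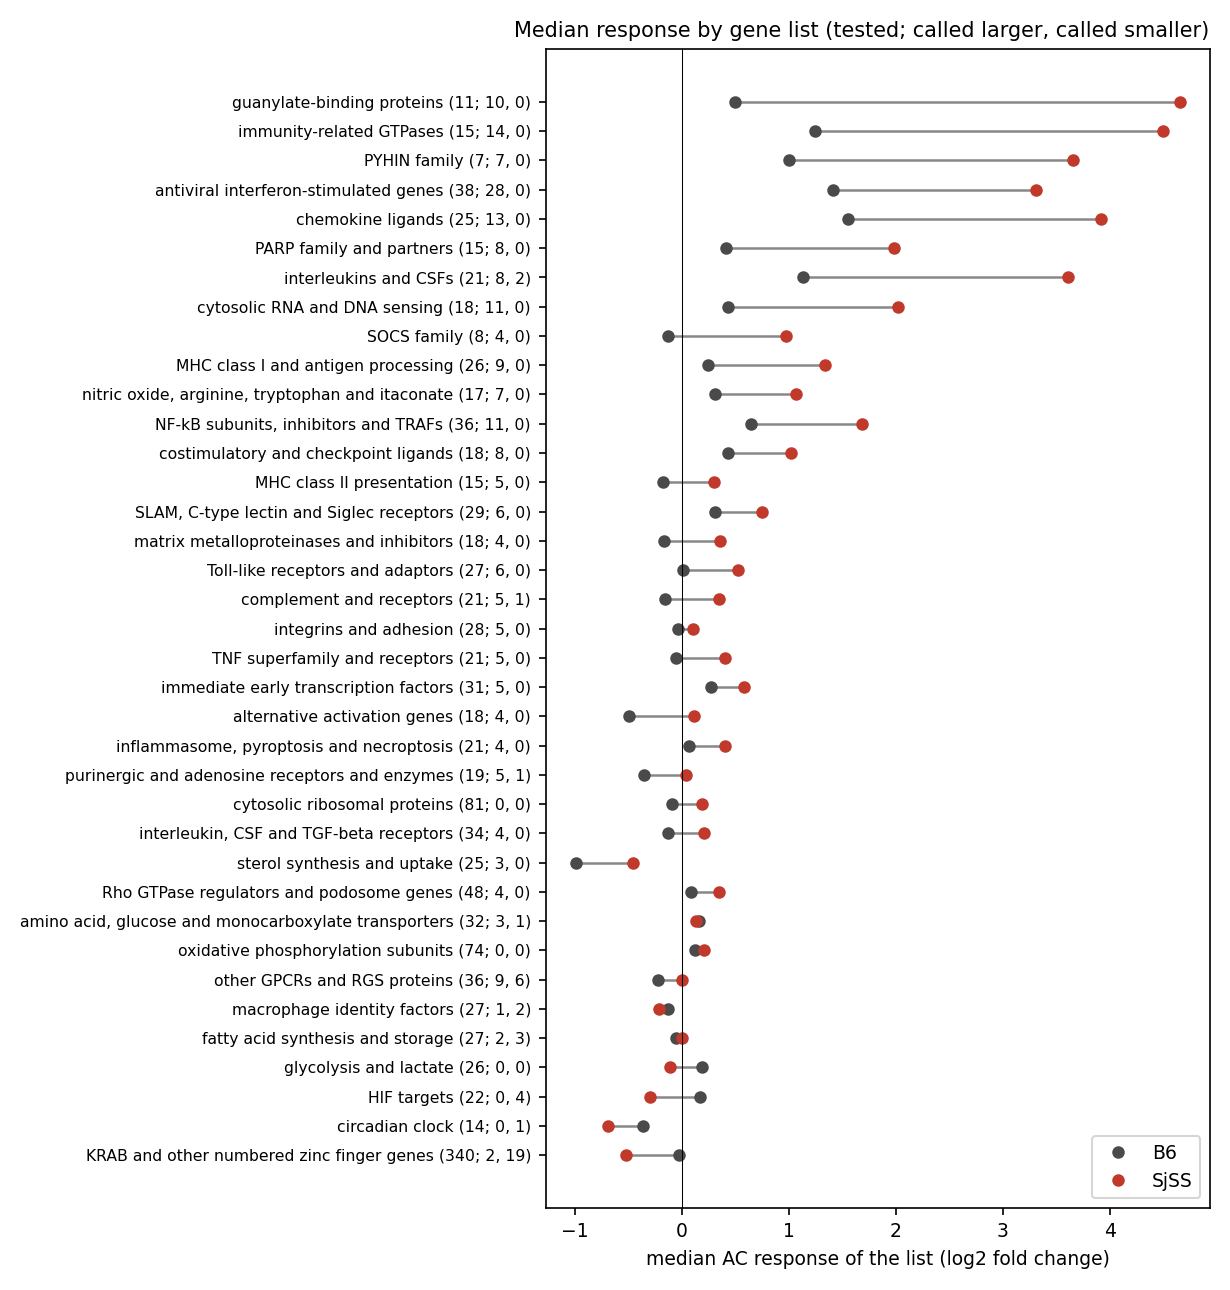
Gene groups by the median log2 response of their measured members to ACs (horizontal) in B6 (dark) and SjSS BMDMs (red). The number of members tested, called larger and called smaller follows each name. The medians of the guanylate-binding proteins lie furthest apart, at 0.49 in B6 and 4.65 in SjSS, and those of oxidative phosphorylation are 0.12 and 0.21.

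For 67 of the 752 genes the difference arose from a fall in B6 that was not called in SjSS. Their median response was -1.65 in B6 and 0.11 in SjSS, and their median difference between control strains was -0.25. Trf, the iron carrier transferrin, (chr9:103204001-103230445) measured 788, 718 and 702 CPM in control B6, 201, 181 and 162 CPM in AC treated B6, 763, 916 and 747 CPM in control SjSS and 796, 952 and 816 CPM in AC treated SjSS BMDMs. The AC treated B6 samples lay below all others, an interaction of 2.10 (SE 0.14, adjusted p = 1.03e-09). Fcgr2b, the inhibitory IgG receptor, measured 198, 194 and 177 CPM in control B6, 33.6, 40.7 and 38.3 CPM in AC treated B6, 86.998, 111 and 78.4 CPM in control SjSS and 101, 109 and 94.2 CPM in AC treated SjSS BMDMs. Control levels were lower in SjSS, although not called (-1.05), and AC treated SjSS samples overlapped their controls, whereas AC treated B6 samples fell below every other sample (2.48 (SE 0.16, adjusted p = 8.54e-10)). Mmp12, macrophage elastase, fell in B6 from 562, 840.4 and 860.1 to 255, 187 and 227 CPM and was 716, 817 and 713 and 734, 866 and 734 CPM in control and AC treated SjSS BMDMs (1.81 (SE 0.22, adjusted p = 2.61e-06)). The mannose receptor Mrc1 (1.36), the integrin Itgax (1.64), the antioxidant enzyme Gpx3 (1.61) and the purinergic receptors P2ry12 (1.41) and P2ry13 (2.33) had the same course. The calls of Mrc1 and P2ry12 fell just under the limit of size when either of 2 samples was left out, B6 control replicate 2 or B6 AC replicate 1 for Mrc1 and B6 control or AC replicate 1 for P2ry12. Of 25 genes of sterol synthesis and uptake, 6 were lowered by ACs in B6 and 1 in SjSS, the median responses were -0.99 and -0.46, and 3 were larger and 0 smaller. The median interaction of 0.26 turns to -0.08 when libraries are scaled by totals alone.

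Smaller responses were led by genes that ACs lowered further in SjSS. Bmf (chr2:118528757-118549688), a BCL2 family member that promotes cell death, measured 20.4, 18.02 and 17.5 CPM in control B6, 7.92, 7.57 and 6.86 CPM in AC treated B6, 35.5, 31.9 and 41.7 CPM in control SjSS and 1.73, 1.72 and 1.39 CPM in AC treated SjSS BMDMs. It fell in both strains, and the AC treated SjSS samples were the lowest although the SjSS controls were the highest, an interaction of -3.17 (SE 0.21, adjusted p = 1.37e-09). Frat1 (chr19:41829970-41832584), a positive regulator of Wnt signalling through GSK3, measured 4.13, 3.901 and 4.26 CPM in control B6, 0.953, 1.72 and 0.891 CPM in AC treated B6, 8.897, 6.33 and 9.84 CPM in control SjSS and 0.129, 0.0631 and 0.0897 CPM in AC treated SjSS BMDMs, an interaction of -4.70 (SE 0.57, adjusted p = 2.65e-06). Its neighbour on chromosome 19, Frat2, had -2.53. Sesn1 (chr10:41810574-41908425), a stress sensor that restrains mTORC1, measured 153, 125 and 124 CPM in control B6, 72.8, 70.8 and 70.9 CPM in AC treated B6, 180.4, 159.6 and 227 CPM in control SjSS and 21.4, 21.6 and 21.04 CPM in AC treated SjSS BMDMs. It was the most abundant of the 10 most negative genes, and its 3 AC treated SjSS samples lay below all others (-2.24 (SE 0.15, adjusted p = 9.56e-10)). Gpr183, the receptor for the oxysterol that is made from the product of Ch25h, fell from 8.12, 5.84 and 5.29 to 1.95, 1.49 and 2.09 CPM in B6 and from 7.99, 7.33 and 7.12 to 0.491, 0.357 and 0.202 CPM in SjSS (-2.62 (SE 0.44, adjusted p = 0.000107)). The other genes named by the rule were Kcnq1ot1, an imprinted long noncoding RNA (-2.84), Engase, an enzyme that removes N-glycans (-2.60), Ypel2 (-2.39) and the zinc finger genes Zfp760 (-2.34) and Zfp395 (-2.28).

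**Figure D4:**
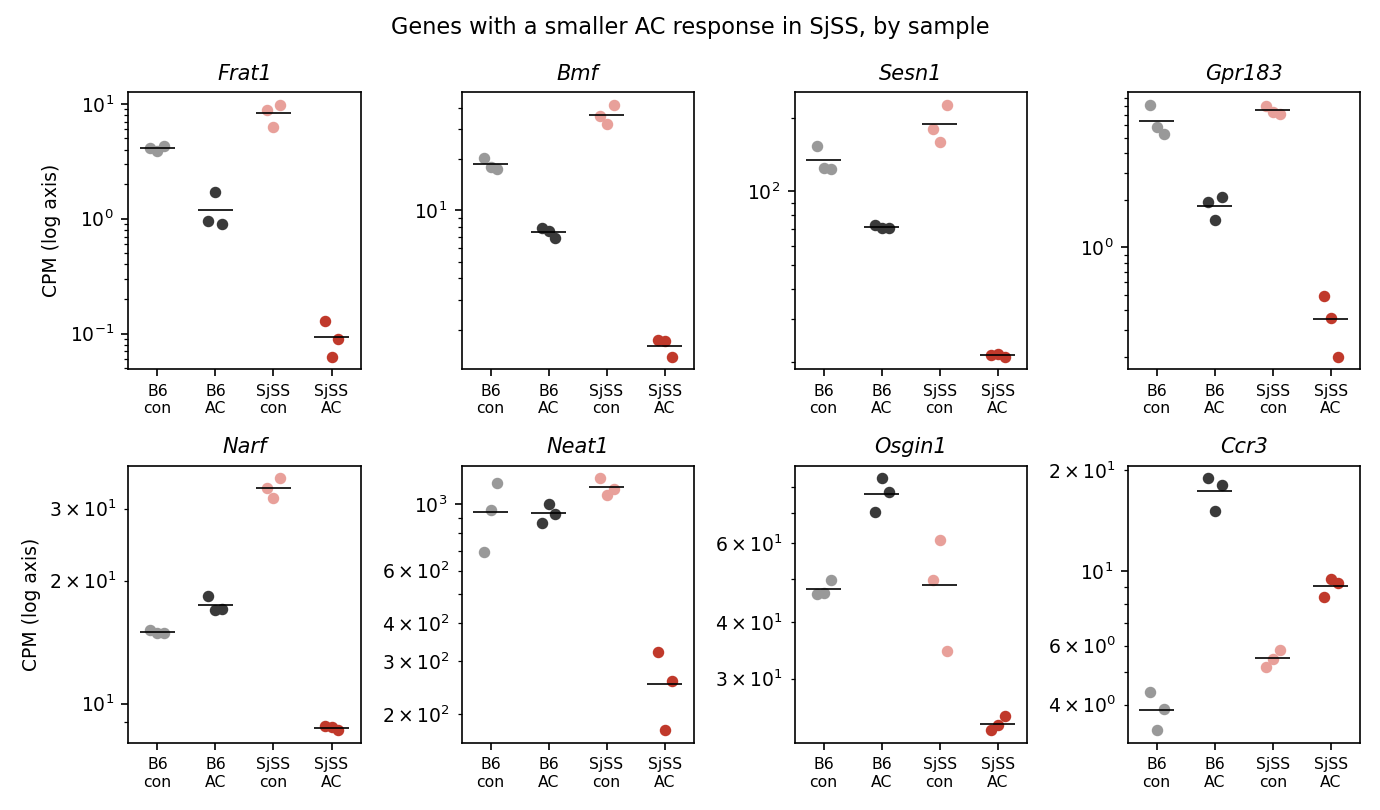
CPM of 8 genes with a smaller AC response in SjSS, on log axes that differ between panels, in control (con) and AC treated (AC) samples of each strain, with 1 point per sample and a bar at the mean of 3. AC treated SjSS samples are the lowest in genes such as Bmf, Frat1 and Sesn1, and in Ccr3 the AC treated B6 samples are the highest.

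Single members of other groups were also smaller. Cebpa, a myeloid lineage factor, had -1.32 (SE 0.14, adjusted p = 5.9e-07), close to the limit of size, so that its call was lost when any of 4 samples was left out. Of 27 macrophage identity factors in all, 1 was larger (3.7%) and 2 smaller (7.41%). The lineage factor Maf had responses of -0.74 in B6 and -0.76 in SjSS, neither called, and an interaction of -0.02 (SE 0.12). Of 36 other G protein-coupled receptors and RGS genes, 9 were larger and 6 smaller. The larger ones included the niacin receptor Hcar2 (3.93) and Gpr84 (1.98), a receptor for medium-chain fatty acids, and the smaller ones the cannabinoid receptor Cnr2 (-1.84) and the lysophosphatidic acid receptors Lpar5 (-1.80) and Lpar6 (-1.49). Of 22 HIF targets, 0 were larger and 4 smaller, Ankrd37 (-3.19), Narf (-2.17), Egln3 (-1.93) and Ddit4 (-1.40), with a median of -0.28. The difference between control strains was 1.60 for Ankrd37, called higher in SjSS, and 1.17 for Narf, not called, and in Narf the AC treated samples of SjSS were at 8.84, 8.77 and 8.61 CPM against 18.4, 16.9 and 17.1 CPM in B6. The calls of Egln3 and Ddit4 were each lost when 1 sample was left out, B6 AC replicate 1 for Egln3 and either B6 control replicate 2 or SjSS control replicate 3 for Ddit4. Tsc22d3, a glucocorticoid-induced gene (GILZ), was 68.8, 66.3 and 61.1 CPM in control and 26.8, 28.9 and 27.2 CPM in AC treated SjSS BMDMs and 50.7, 47.7 and 52.2 and 57.5, 61.9 and 61.4 CPM in B6, neither response called alone, an interaction of -1.51 (SE 0.15, adjusted p = 1.38e-07). Of 14 glucocorticoid-induced genes, 1 was larger (7.14%) and 2 smaller (14.3%), and Fkbp5, a widely used indicator of glucocorticoid action, had an interaction of 0.03 (SE 0.15). Osgin1, an NRF2 target, was 46.3, 46.4 and 49.6 CPM in control and 70.2, 83.7 and 78.1 CPM in AC treated B6 and 49.8, 61.02 and 34.6 and 23.05, 23.7 and 24.7 CPM in SjSS BMDMs, with neither response called alone and an interaction of -1.72 (SE 0.23, adjusted p = 1.06e-05). Of 28 NRF2 targets, 2 were larger (7.14%) and 1 smaller (3.57%). Of 26 ATF4 targets 2 were larger (7.69%) and 1 smaller (3.85%), and of 19 heat shock genes 0 were called. Over all genes 4.76% were larger and 2.77% smaller, so counts of 1 or 2 members are not read as results about these groups.

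Only 21 of the 437 smaller genes had been raised by ACs in B6. Of these, 14 were protein-coding and 2 reached 5 CPM in any group, Ccr3 and Syn1, the latter picked after its values were seen. Ccr3, the eotaxin receptor, measured 4.36, 3.36 and 3.87 CPM in control B6, 18.96, 15.2 and 18.1 CPM in AC treated B6, 5.19, 5.47 and 5.84 CPM in control SjSS and 8.37, 9.46 and 9.22 CPM in AC treated SjSS BMDMs. It rose in B6, the SjSS response of 0.71 was not called, and the AC groups did not overlap, an interaction of -1.45 (SE 0.18, adjusted p = 3.45e-06). Syn1 went from 9.11, 16.02 and 14.97 to 38.5, 42.1 and 44.4 CPM in B6 and was 23.3, 21.9 and 21.5 and 23.6, 22.6 and 23.6 CPM in SjSS (-1.58).

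The kind of gene differed between the directions. Of 12980 protein-coding genes, 679 (5.23%) were larger and 227 (1.75%) smaller. Of 1444 long noncoding RNAs and unconfirmed transcripts (the annotation class TEC), 44 (3.05%) were larger and 187 (13%) smaller, with median responses of -0.14 in B6 and -0.61 in SjSS. The median CpG interaction of these 1444 was 0.12. The share was 13.9% smaller for 397 lincRNAs, 11.1% for 371 antisense RNAs and 13.7% for 380 TEC transcripts. Many are of low level: 525 of the 1444 reached 1 CPM in a group, and 79 of these were smaller and 28 larger. The nuclear noncoding RNAs Neat1 and Malat1, picked after their values were seen, are abundant. Neat1 measured 694, 954 and 1179.8 CPM in control B6, 866, 1004 and 928 CPM in AC treated B6, 1220.5, 1069 and 1123 CPM in control SjSS and 322, 176 and 257 CPM in AC treated SjSS BMDMs, and all AC treated SjSS samples lay below all others (-2.16 (SE 0.32, adjusted p = 3.11e-05)). Malat1 had -1.48, a call lost without SjSS AC replicate 2. The next shares are percents of the TMM-scaled library size, not of the raw counts. Together the 2 genes took 0.0493% to 0.0985% in AC treated SjSS libraries and 0.148% to 0.246% in the other 3 groups. All 1444 took 0.504% to 0.593% against 0.587% to 0.714%. Mitochondrially encoded genes took 0.718% to 0.941% in control SjSS libraries, 1.32% to 1.53% in AC treated SjSS libraries and 1.18% to 1.54% over all B6 libraries. The TMM factors (0.833 to 0.838 in AC treated SjSS and 1.021 to 1.134 in the other 3 groups) enter all these shares. Relative to raw counts, they raise the AC treated SjSS shares and lower the others. In SjSS, the median share of Neat1 and Malat1 fell from 0.215% in control to 0.0874% in AC treated libraries. That of all 1444 fell from 0.654% to 0.572%, by fewer percentage points. By these medians, the summed share of the other noncoding genes was not lower after ACs in SjSS on the TMM scale. On this scale the mitochondrial share rose after ACs in SjSS, from a control level below every B6 library. The part of these shares in the result was not tested. Whether the counting used strand is not given in the sources used here, so an antisense or TEC transcript cannot be told apart from a gene it overlaps.

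**Figure D5:**
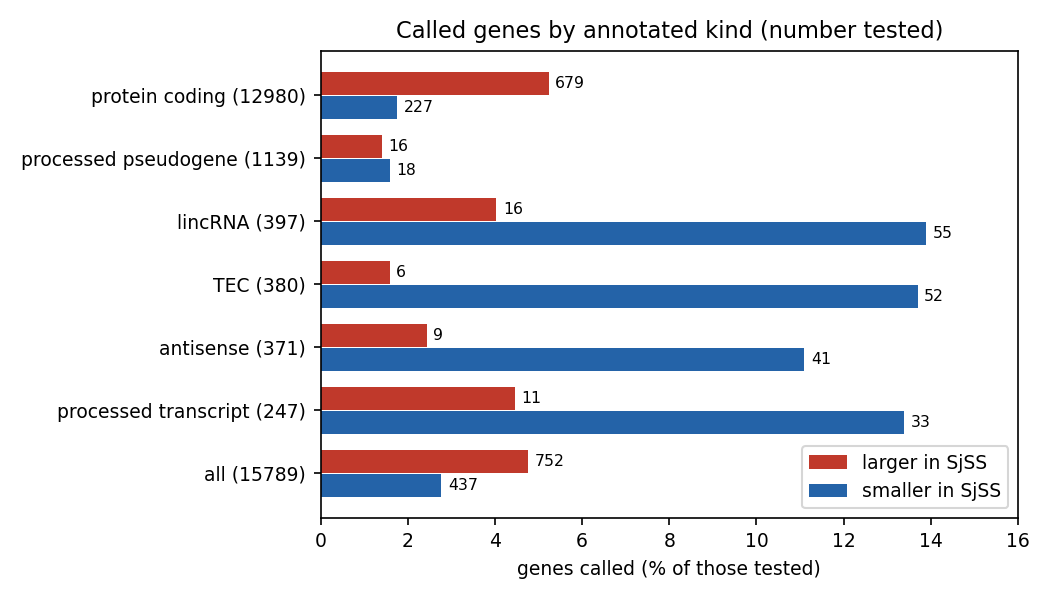
Percent of tested genes of each annotation class that were called larger (red) or smaller (blue) in SjSS, with the number of called genes beside each bar. The lincRNA, TEC, antisense and processed transcript classes have 11.1% to 13.9% smaller genes, processed pseudogenes 1.58% and protein-coding genes 1.75%.

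Zinc finger genes with numbered names, many of them of the KRAB class that represses transposable elements, moved with the noncoding RNAs. Of 340 measured, 2 were larger and 19 smaller (5.59%), and the median interaction was -0.50, with medians of -0.03 in B6 and -0.52 in SjSS. At an adjusted p under 0.05 alone, 18 were positive and 172 negative. ACs lowered 32 in SjSS and 2 in B6, and the median CpG interaction of the group was 0.03. Zfp395 fell from 37.6, 35.4 and 38.5 to 2.92, 2.33 and 2.65 CPM in SjSS and from 33.4, 30.2 and 30.7 to 11.8, 10.5 and 10.2 CPM in B6 (-2.28 (SE 0.15, adjusted p = 6.83e-10)). The calls of 11 of the 19 were lost when some 1 sample was left out.

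Genes of uptake and lipid handling were called in both directions. Of 35 genes for phosphatidylserine recognition and engulfment, 2 were larger (5.71%) and 1 smaller (2.86%), close to the shares over all genes, with a median of 0.24, or -0.10 with library totals alone. Mertk measured 207, 243 and 236 CPM in control B6, 145, 148 and 145 CPM in AC treated B6, 273, 264 and 256 CPM in control SjSS and 188, 172 and 186 CPM in AC treated SjSS BMDMs. The responses were -0.65 in B6 and -0.54 in SjSS, neither called, and the interaction was 0.11 (SE 0.11, adjusted p = 0.488). Axl was 313, 237 and 234 CPM in control and 170.2, 148 and 139 CPM in AC treated B6 and 187, 183 and 193 and 343, 333 and 393 CPM in SjSS BMDMs, neither response called alone, an interaction of 1.70 (SE 0.16, adjusted p = 1.03e-07). Tyro3 was at most 1.14 CPM in any of the 12 samples. The scramblase gene Xkr8 was the other larger member (2.11) and Cd300lb, an activating receptor for phosphatidylserine, the smaller (-1.30), a value at the limit of size whose call was lost when any of 5 samples was left out. Of 24 LXR targets and cholesterol efflux genes, Ch25h was larger and Scd2, a desaturase, smaller (-1.53). That is 4.17% in each direction, against 4.76% larger and 2.77% smaller over all genes. The cholesterol exporter Abca1 had responses of 0.53 in B6 and 0.54 in SjSS, neither called. Of 27 genes of fatty acid synthesis and storage, 2 were larger (7.41%) and 3 smaller (11.1%). Lpin1, which makes diacylglycerol, fell in both strains and further in SjSS (-1.51 (SE 0.20, adjusted p = 8.79e-06)), and Scd2 and the lipase inhibitor G0s2, under 2 CPM in all 12 samples, were the other smaller members. Of 74 oxidative phosphorylation, 81 ribosomal protein, 26 glycolysis, 19 V-ATPase, 30 autophagy and 21 unfolded protein response genes, 0 were called in either direction, and 16, 49, 6, 7, 5 and 10 were positive and 0, 1, 8, 1, 14 and 2 negative at an adjusted p under 0.05 alone. The medians of oxidative phosphorylation (0.10) and ribosomal protein genes (0.30) turn negative, to -0.25 and -0.04, with library totals alone. Of 48 mitotic and DNA replication genes, 1 was smaller (2.08%), under the share over all genes, and the median was -0.21. It was E2f2 (-1.38), a call lost without B6 AC replicate 1 or SjSS AC replicate 3.

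In 9 genes ACs acted in opposite directions, both responses called. The 5 with the most negative product of the responses were Gm7162, Fam46b, Arhgef37, Gm19040 and Amica1. Arhgef37, a guanine nucleotide exchange factor, measured 1.39, 1.42 and 0.959 CPM in control B6, 0.258, 0.416 and 0.446 CPM in AC treated B6, 0.903, 0.946 and 1.11 CPM in control SjSS and 7.13, 6.39 and 6.86 CPM in AC treated SjSS BMDMs. It fell in B6 (-1.75) and rose in SjSS (2.78), an interaction of 4.53 (SE 0.40, adjusted p = 3.96e-08). Amica1, the adhesion molecule JAML, fell in B6 from 0.865, 0.4798 and 0.764 to 0.159, 0.246 and 0.0446 CPM and rose in SjSS from 0.239, 0.0887 and 0.236 to 0.594, 0.694 and 0.763 CPM (3.98). The other 3 were scarce, with 3 to 12 counts in the 3 control B6 samples together. Gm7162 held 6 counts over the B6 controls and 52 over the B6 samples with ACs, against 32 and 3 in SjSS, Fam46b 3 counts over the B6 controls and 21 over the B6 samples with ACs, against 21 and 2 in SjSS, and Gm19040 12 counts over the B6 controls and 39 over the B6 samples with ACs, against 47 and 7 in SjSS. Kif5c, a kinesin and the most abundant of the 9, was picked after its values were seen. It measured 5.59, 6.09 and 4.83 CPM in control B6, 1.91, 1.78 and 2.01 CPM in AC treated B6, 7.81, 6.27 and 7.81 CPM in control SjSS and 20.96, 18.4 and 20.1 CPM in AC treated SjSS BMDMs, an interaction of 2.97 (SE 0.19, adjusted p = 6.83e-10).

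The same difference of responses for CpG was far rarer, with 45 genes (0.285%) larger and 52 (0.329%) smaller in SjSS. Both interactions use the same control samples, so they are given side by side, and the test of their difference is the direct contrast of them. That contrast was called positive for 817 genes (5.17%) and negative for 562 (3.56%). Of the 752 genes larger with ACs, 599 were called positive in it and 0 negative, and of the 437 smaller genes 289 were negative and 0 positive. The contrast uses the same AC samples that chose these genes, so the shared sign follows in part from that choice. For Cd69 the interaction was 5.17 with ACs and -0.38 with CpG, for Gbp5 4.88 and -0.78, for Il6 4.63 and 0.29, and for Bmf -3.17 and -0.04. Antiviral interferon-stimulated genes had opposite signs, with a median of 1.99 with ACs and -0.71 with CpG, where 9 of 38 were smaller and 0 larger. Their median strain difference in control BMDMs, which enters both interactions, was 0.72, higher in SjSS. Cxcl10 was -2.03 and Il1b -1.79 with CpG, both called smaller. Tlr2 was positive for both, at 1.66 and 1.24, and its difference of 0.42 was not called. HIF targets had medians of -0.28 with ACs and -0.33 with CpG.

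By chromosome, larger responses took 3.08% (X) to 6.79% (chromosome 1) of the genes tested, and smaller responses 0.532% (chromosome 18) to 4.15% (chromosome 5). Differences between control samples of the strains were more uneven, at 8.22% on chromosome 1 and 4.57% on chromosome 3, and 0.702% to 2.03% on the others. Chromosome 1 held 71 of the 752 larger genes, among them the PYHIN genes and Fcgr2b.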

How the data were processed

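RNA-seq was measured in 18 BMDM samples of 2 strains. The values used are gene-level estimated counts deposited by the authors, who per the submitters' processing notes and the methods aligned reads with STAR to mm10 and quantified them in Partek by expectation maximisation, which can divide reads between similar genes. Fractional values (further than 1e-06 from a whole number) made up 41.1%, and all were rounded. Genes were filtered with filterByExpr, libraries scaled by TMM, and a quasi-likelihood model fitted in edgeR 4.0.16 (R 4.3.3, limma 3.58.1) over the 6 groups of all 18 samples. Contrasts were adjusted by Benjamini-Hochberg over all 15789 genes and called where the adjusted p was under 0.05 and the log2 difference passed 1.3. CPM are TMM-scaled. Log2 CPM, used for correlations and for the overlap of sample differences, have a prior count of 2, and fitted folds use the default of edgeR. Named genes were the 10 most positive and 10 most negative called interactions among genes with a mean of 5 CPM in a group, 10 counts in each of the 4 groups and sample differences that did not overlap. Also named were the 5 genes with the most negative product of opposite, called responses, members of the gene lists and genes the study's text names, and others are marked as picked afterwards. Members and lists were chosen with earlier results of these data known. The alternatives were DESeq2 1.42.0, other scalings, thresholds and filters, thinned counts, each sample left out and a replicate block, with 2 filters chosen after seeing the data. Same-numbered control and AC samples correlated at 0.020 to 0.193 in their deviations from group means, not all over 0.1, so numbers were not taken to pair samples. Symbols of 21 genes had been turned into dates and were not used by name. Scripts were tested on simulated data. Intervals and p values cover neither PCR duplicates nor shared cultures. Some genes are not reported here.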

Additional observations from a re-analysis of the deposited data

Results flagged for a closer look

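The response to ACs differed between the strains, by the test of the difference itself, for 752 genes in the larger and 437 in the smaller direction. Among the named genes with a larger response in SjSS, the log2 interaction was 6.30 for Serpina3g, 6.12 for Ch25h, 5.76 for Tgtp1, 5.35 for Socs1, 5.29 for Ccl12, 5.19 for Il27, 5.17 for Cd69, 5.05 for Gbp4, 4.96 for Lhx2 and 4.88 for Gbp5. Among those with a smaller response it was -4.70 for Frat1, -3.17 for Bmf, -2.84 for Kcnq1ot1, -2.62 for Gpr183, -2.60 for Engase, -2.53 for Frat2, -2.39 for Ypel2, -2.34 for Zfp760, -2.28 for Zfp395 and -2.24 for Sesn1. Among genes with opposite responses it was 4.53 for Arhgef37, 3.98 for Amica1, -6.32 for Gm7162, -5.88 for Fam46b and -4.40 for Gm19040. The last 3 had few counts, and their fitted values have wide errors.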

How the results depend on the processing

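The 752 larger and 437 smaller genes became 509 and 913 with library totals alone, where larger genes were 35.8% of the calls in place of 63.2%, the median interaction over all genes was -0.347, and the contrast of ACs and CpG had 1338 negative genes. With a log2 limit of 2 there were 351 and 169 genes, 15 and 13 for CpG and 462 and 230 for the contrast. With no limit there were 3098 and 2889 (51.7% larger), 510 and 413 for CpG and 3025 and 3138 for the contrast. With a 1.3-fold limit there were 2327 and 2307 (50.2% larger), 424 and 320 for CpG and 2318 and 2557 for the contrast. A test against the limit itself gave 313 and 54 (85.3% larger), 0 and 1 for CpG and 419 and 88 for the contrast. Both of the next settings were chosen after seeing the data. Protein-coding genes alone gave 682 and 236 (74.3% larger), and genes of at least 1 CPM in a group gave 658 and 271. DESeq2 gave 791 and 423, upper quartile scaling 690 and 515, and thinned counts 698 and 366.

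With each sample left out in turn there were 716 to 753 larger and 384 to 465 smaller genes, a median of -0.02 to 0.001 and 61.5% to 65.4% larger. For CpG there were 30 larger genes without SjSS CpG replicate 1 and 62 without SjSS CpG replicate 3, with 44 to 65 smaller over all samples left out, and the contrast had 777 to 841 positive and 492 to 659 negative. Of 337 named and listed genes followed, 57 lost their call without 1 of the 12 samples, 63 with library totals alone and 159 in the test against the limit, and 0 reversed.

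With a replicate block within each strain there were 769 larger and 444 smaller genes, 51 and 63 for CpG and 818 and 572 for the contrast. With a block shared over strains there were 760 and 433, 46 and 55, and 814 and 546. That the numbers pair the samples was not shown, since same-numbered correlations were 0.020 to 0.193 and not every sample correlated best with its own number. Depth limits the genes with few control counts, whose interactions have wide errors.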
